A study of Mus musculus with 7 samples.

Results

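The dermis of the tail was set against the dermis of the back in wild-type (WT) mice at postnatal day 50, with 1 RNA sequencing library for each site. Both libraries were made from the total RNA of flow-sorted cells, and carry the genotype label Wt/Wt and the strain label CD1/C3H. The dorsal sample is labelled as dermal cells of the back, whereas the tail sample is named as tail dermis by its title and has skin as its tissue label. The labels give no number of animals, no pooling and no sort markers. Other libraries from the series served only as reference levels: WT ear dermis and WT dorsal epidermis, both Wt/Wt, and ear dermis of Wt/Koa mice, which carry 1 copy of the Koa allele, all from mice of the same age and strain label. The series holds 7 RNA samples, of which the comparison used 2.

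Levels are given in FPKM as deposited, a unit that divides the fragments of a gene by its transcript length and by the mapped fragments of the library. Genes on the autosomes that stood above 0 in the tail library and reached 1 FPKM in either library were kept, which left 12788 of 22552 genes. Differences are tail minus dorsal on the log2(FPKM + 1) scale, which understates the change of low genes, and a gene was counted as higher or lower when it differed by at least 1. With 1 library per site the differences could not be checked against replicates and have no p-value, so every count describes these libraries and not the sites in general.

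Dermis is built by fibroblasts that secrete collagens and other matrix, and it holds vessels, nerves, pigment cells, immune cells and the mesenchyme of hair follicles. Fibroblasts of different body sites keep a record of their position in their Hox genes. These genes code for transcription factors and lie in 4 clusters, in which the order of the genes mirrors the order of their domains from head to tail. The groups with low numbers act in anterior regions and those with high numbers in posterior and distal regions such as the tail bud, the genitalia and the digits.

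The tail library stood lower than the dorsal library over most genes. Of the 12788 genes 971 (7.59%) were higher in tail dermis, 3179 (24.9%) were lower and 8638 were neither, and the median difference was -0.42. When the tail values were multiplied by 1.40, which sets this median to 0, 1876 genes (14.7%) were higher and 2038 (15.9%) lower, so that 47.9% of the called genes were higher in place of 23.4%. The genes nearest to the threshold were Cdc42ep4, at 34.7 FPKM in tail and 16.8 FPKM in dorsal dermis and just inside it, and Rab4b, at 48.6 and 23.8 FPKM and just outside it. On the other side Aagab, at 8.43 and 17.9 FPKM, lay just inside and Tbc1d19, at 2.82 and 6.64 FPKM, just outside. Gene list counts below are read against these shares.

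**Figure D1:**
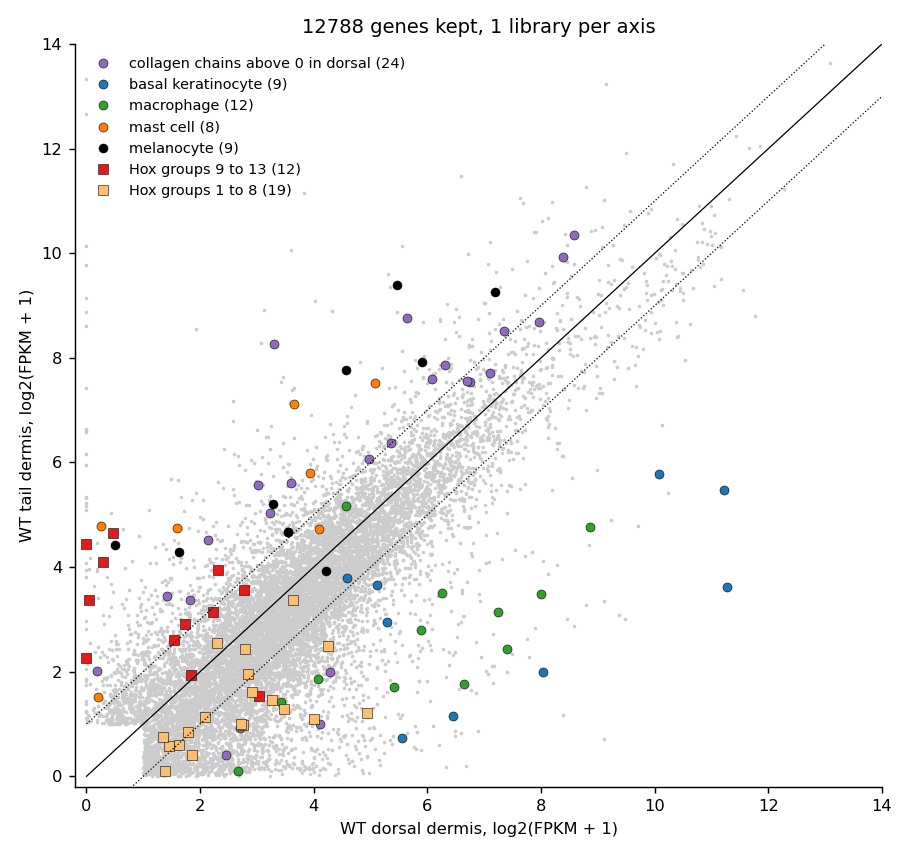
Level of each gene kept in WT tail dermis (vertical axis) against WT dorsal dermis (horizontal axis), both as log2(FPKM + 1); the solid line marks equal levels, the dotted lines a difference of 1, and colours mark gene groups with the number of genes in brackets. Hox genes of groups 9 to 13, mast cell and pigment genes lie mostly above the lines, and macrophage and basal keratinocyte genes lie mostly below.

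Several features of the 2 libraries bear on what follows. All 22552 values of the tail column carry at most 2 decimals, against 3544 of the dorsal column, and 222 symbols at 10 FPKM or more in all 6 other libraries are listed at 0 in tail; 697 autosomal symbols at 1 FPKM or more in dorsal dermis were left out because the tail lists them at 0. The reverse also occurs: 14 kept genes at 5 FPKM or more in tail are listed at 0 in all 6 other libraries, among them Hmgcs1, an enzyme of sterol synthesis that cells in general use, so a 0 there can be a failed estimate. The mice differed in sex by their transcripts: Xist, the RNA that coats the silenced X chromosome in females, reached 41.5 FPKM in tail and 0.122 FPKM in dorsal dermis, and the Y-linked gene Ddx3y at 0 and 33.1 FPKM. The dorsal library held much more keratinocyte RNA. The 9 basal keratinocyte markers summed to 144 FPKM in tail, 6410 FPKM in dorsal, 788 FPKM in WT ear and 1950 FPKM in Koa ear dermis, none of them at 0, and each marker as a share of its level in dorsal epidermis had a median of 0.628% in tail (0.141% to 42.3%) and 38.5% in dorsal dermis (26.5% to 75.8%). Site, sex, column processing and keratinocyte content cannot be told apart as sources of a difference where they move together. For this reason levels in dorsal epidermis are given beside the results they touch. Some differences are also given after the dorsal epidermal profile had been subtracted from each library at its median marker share and the rest rescaled. Values that fell below 0 were set to 0. Genes much higher in dorsal epidermis than in dorsal dermis therefore reach 0 by the arithmetic, so nothing is concluded from a turned or widened difference there.

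The Hox genes split by their place in the clusters. Of 39 Hox genes 31 were kept, and 8 of these were higher in tail, 12 were lower and 11 neither. In groups 10 to 13, 7 of 8 kept genes (of 12) were higher and none was lower, with a median difference of 2.79. The count and median take in Hoxa13 and Hoxb13, which are listed at 0 in dorsal dermis. In groups 1 to 8, 11 of 19 kept genes (of 23) were lower and none was higher, with a median of -1.28. With the tail values scaled, all 8 kept genes of groups 10 to 13 were higher and 9 of the 19 in groups 1 to 8 lower. The clusters lie on chromosome 6 (Hoxa, chr6:52155367-52260880), chromosome 11 (Hoxb, chr11:96194316-96368254), chromosome 15 (Hoxc, chr15:102921131-103036856) and chromosome 2 (Hoxd, chr2:74668225-74765142) in RefSeq's annotation of GRCm38.

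**Figure D2:**
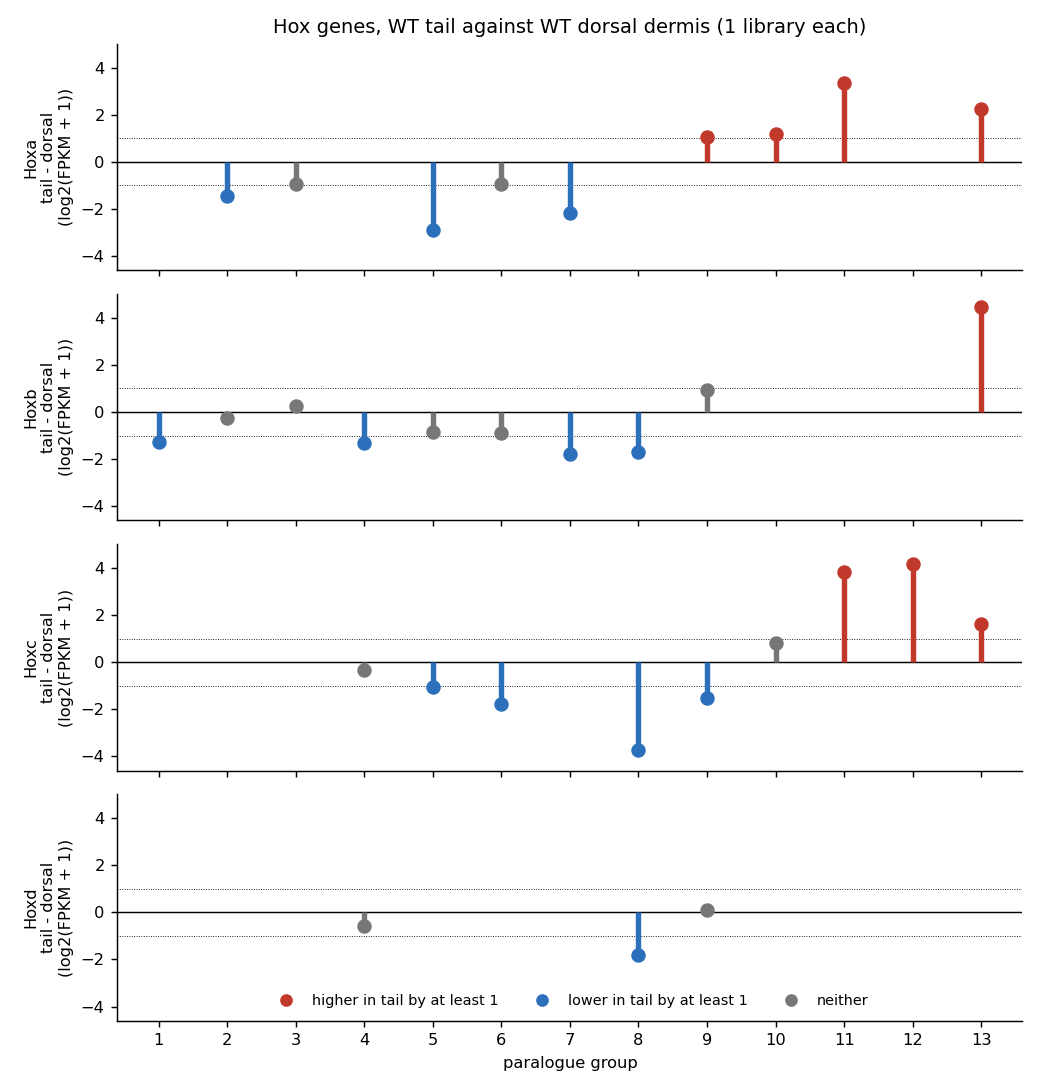
Difference of each kept Hox gene between WT tail and WT dorsal dermis (tail minus dorsal, log2(FPKM + 1)) by paralogue group, 1 panel per cluster; dotted lines mark a difference of 1 and grey genes were neither higher nor lower. Red genes, all in groups 9 to 13, were higher in tail, and blue genes, all but Hoxc9 in groups 1 to 8, were lower.

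The sequences before the start sites of 3 Hoxa genes are shown because the genes lie within the same cluster and stood apart between tail and back. Hoxa13 and Hoxa11 were higher in tail and Hoxa5 was lower. Each line gives the 250 bases before the gene's start on its own (minus) strand, from RefSeq's GRCm38.p6 table, with every CpG, the dinucleotide CG at which DNA is methylated, in capitals.
Hoxa13, chr6:52260881-52261130: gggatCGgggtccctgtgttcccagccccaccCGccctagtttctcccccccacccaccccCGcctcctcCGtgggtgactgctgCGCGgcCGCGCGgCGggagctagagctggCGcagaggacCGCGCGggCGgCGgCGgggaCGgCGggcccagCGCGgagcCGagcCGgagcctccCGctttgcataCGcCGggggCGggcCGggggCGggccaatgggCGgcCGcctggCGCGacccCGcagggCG
Hoxa11, chr6:52245811-52246060: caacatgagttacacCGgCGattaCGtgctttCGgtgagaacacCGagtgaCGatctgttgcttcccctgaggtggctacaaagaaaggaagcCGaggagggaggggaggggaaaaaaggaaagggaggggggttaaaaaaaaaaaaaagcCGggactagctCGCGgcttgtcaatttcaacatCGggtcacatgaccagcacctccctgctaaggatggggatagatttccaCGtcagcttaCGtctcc
Hoxa5, chr6:52204588-52204837: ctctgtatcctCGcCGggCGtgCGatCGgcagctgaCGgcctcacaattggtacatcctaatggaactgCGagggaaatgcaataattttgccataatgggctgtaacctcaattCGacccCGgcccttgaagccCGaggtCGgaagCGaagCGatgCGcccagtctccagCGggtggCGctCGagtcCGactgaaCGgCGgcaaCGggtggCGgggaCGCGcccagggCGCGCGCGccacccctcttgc
The counts of CG, which reads the same on both strands, were 35 for Hoxa13, 13 for Hoxa11 and 28 for Hoxa5. Across 27025 promoters of the table the median was 6 and 27.5% held 15 or more. Of the 39 Hox genes 22 were in the table, with a median of 12 and a range of 2 to 35, and 7 of the 22 held 15 or more. CpG-rich windows were thus found before genes that were higher in tail (Hoxa13) and before genes that were lower (Hoxa5).

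Within Hoxa, the genes at the posterior end stood out in tail. Hoxa13, which patterns digits, genitalia and the end of the body, stood at 3.79 FPKM in tail and was listed at 0 in dorsal dermis, both ear dermis libraries and dorsal epidermis. A 0 in these libraries can be a failed estimate, as stated above, so no fold is given. Hoxa11, which patterns the middle segment of the limb, stood at 9.34 FPKM in tail and 0.0303 FPKM in dorsal dermis, a difference of 3.33, and was listed at 0 in both ears. Hoxa10 stood at 6.49 and 2.34 FPKM (difference 1.16) and Hoxa9 at 5.06 and 1.91 FPKM (difference 1.06), with at most 0.0863 FPKM in either ear. Tail was thus the highest of the 4 dermal libraries in all 4 of these genes, by the values as listed.

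Hoxa5, Hoxa7 and Hoxa2 were lower in tail. Hoxa5, which acts in the neck and thorax, stood at 1.15 FPKM in tail, 14.95 FPKM in dorsal dermis and 44.9 FPKM in dorsal epidermis. Hoxa7 stood at 1.44, 10.1 and 23.3 FPKM in the same order. Both were at or under 0.157 FPKM in the ears. In the subtraction Hoxa5 was set to 0 in dorsal dermis and its difference turned to 0.91, and the difference of Hoxa7 shrank from -2.19 to -0.32. The part of keratinocyte RNA in these differences was not tested. Hoxa2, which patterns the external ear, stood at 0.33 FPKM in tail, 2.61 FPKM in dorsal dermis and 19.3 FPKM in WT ear dermis, so that tail was the lowest of the 4 dermal libraries. Dorsal epidermis held 7.57 FPKM of Hoxa2, and in the subtraction it was set to 0 in dorsal dermis and its difference turned from -1.44 to 0.36. Hoxa3 (1.20 and 3.23 FPKM) and Hoxa6 (0.80 and 2.43 FPKM) lay just under the threshold on the lower side, and Hoxa4 was not kept.

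In Hoxb the difference was below 0 from Hoxb4 to Hoxb8 and above 0 in Hoxb9 and Hoxb13. Hoxb3, nearer the other end of the cluster, also lay above 0, at 0.26. Hoxb13, the last gene of the cluster, which limits the length of the tail, stood at 20.8 FPKM in tail and was listed at 0 in all 6 other libraries. Because Hmgcs1 is listed at 0 in the same 6 libraries, this 0 cannot be told apart from a gene that was not estimated, and no fold is given. Hoxb9 stood at 7.85 FPKM in tail and 3.68 FPKM in dorsal dermis, a difference of 0.92 that stayed under the threshold but reached 1.36 with the tail values scaled. Hoxb7 (0.98 and 5.77 FPKM), Hoxb8 (1.01 and 5.58 FPKM), Hoxb4 (2.07 and 6.54 FPKM) and Hoxb1 (0.08 and 1.62 FPKM) were lower, by 1.28 to 1.77. Hoxb7 and Hoxb8 stood at 19.8 and 15.4 FPKM in dorsal epidermis and were set to 0 in dorsal dermis in the subtraction, which turned their differences to 0.90 and 0.94. Hoxb2, at 9.40 and 11.4 FPKM, and Hoxb3, at 4.85 and 3.88 FPKM, were close in the 2 libraries and under 1 FPKM in both ears. Hoxb5 and Hoxb6 were neither higher nor lower.

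Between Hoxb13 and Hoxb9 lies Mir196a-1, the gene of a microRNA known to pair with the messenger RNA of Hoxb8. Its mature form is shown with the seed, bases 2 to 8, in capitals, from RefSeq's GRCm38.p6 table (chr11:96265187-96265208, plus strand).
mmu-miR-196a-5p: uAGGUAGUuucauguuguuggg
The hairpin stood at 526 FPKM in tail, 127 FPKM in dorsal dermis and 259 FPKM in dorsal epidermis and at 0 in both ears. It is the only kept member of the 6 Hox cluster microRNA genes in the table. Mir10b went the other way, at 146 FPKM in dorsal dermis, and was left out because the tail lists it at 0. It was also at 0 in both ears and in dorsal epidermis. FPKM of so short a gene is unstable, and libraries of total RNA do not measure the mature form.

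The Hoxc cluster held the widest Hox differences in both directions apart from Hoxb13. Hoxc12 stood at 24.0 FPKM in tail and 0.387 FPKM in dorsal dermis (difference 4.17) and Hoxc11 at 16.0 and 0.217 FPKM (3.81), with 0.172 FPKM or less of either in the ears and 0.198 FPKM or less in dorsal epidermis. Both genes were thus nearly absent outside the tail in these libraries. Hoxc13, a regulator of hair and nail keratins, stood at 14.4 FPKM in tail and 4.004 FPKM in dorsal dermis (1.62), and here dorsal epidermis held 11.2 FPKM. Hoxc10 stood at 10.9 and 5.80 FPKM (0.80) and at 0.0804 FPKM or less in the ears, so it marked both tail and back without passing the threshold between them.

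In the opposite direction, Hoxc8, a gene of the thoracic region, stood at 1.32 FPKM in tail and 29.5 FPKM in dorsal dermis, a difference of -3.72. Dorsal epidermis held 39.8 FPKM, and after the subtraction dorsal dermis still held 23.1 FPKM and the difference was -3.54. Hoxc6 (4.63 and 18.0 FPKM) moved from -1.76 to -1.77, Hoxd8 (1.74 and 8.58 FPKM) from -1.81 to -2.06 and Hoxc9 (1.89 and 7.24 FPKM) from -1.51 to -2.07. These 4 genes were also lower in tail after the subtraction; the part of keratinocyte RNA in their differences was not tested otherwise. Hoxc5 (0.51 and 2.09 FPKM) was lower by 1.03 and Hoxc4 (4.41 and 5.90 FPKM) was not called.

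Few Hoxd genes were expressed in either dermis. Hoxd9 stood at 2.84 FPKM in tail and 2.56 FPKM in dorsal dermis, Hoxd4 at 0.69 and 1.53 FPKM, and Hoxd10 and Hoxd11 at 0.51 and 0.19 FPKM in tail, too low to be kept. Hoxd12 and Hoxd13 were listed at 0 in all libraries shown here. None of the 3 kept Hoxd genes was higher in tail.

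**Figure D3:**
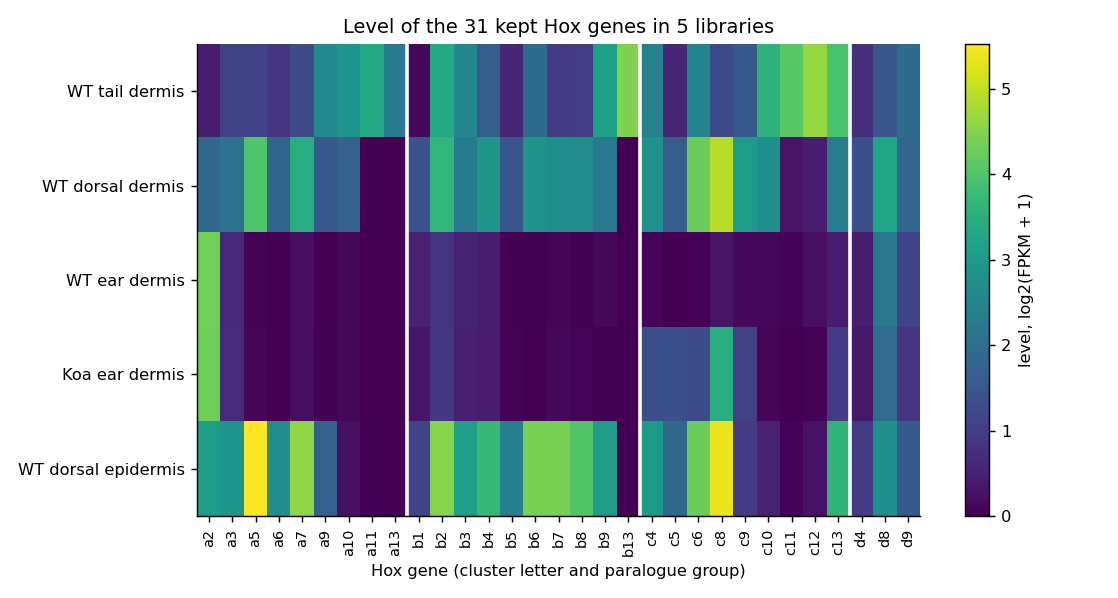
Level of the 31 kept Hox genes (log2(FPKM + 1), colour scale) in 4 dermal libraries and in dorsal epidermis, in the order of the clusters and paralogue groups. Tail dermis has high a11, a13, b13, c11 and c12, and dorsal dermis shares its high a5, a7 and c8 with dorsal epidermis.

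After the subtraction, 6 of the 8 kept genes of groups 10 to 13 were higher, and Hoxa10 dropped out at 0.68. In groups 9 to 13, 8 of 12 were higher and 1 was lower, with a median of 2.08. Hoxb9 came in at 1.90, and the difference of Hoxc13 widened to 3.94 because its value in dorsal dermis was set to 0. In groups 1 to 8, 13 genes were left at 1 FPKM or more, of which 2 were higher and 4 lower, with a median of -0.46. The subtraction thus changed which genes were called on both sides of the split. No share over all genes is given for the rescaled subtraction, so these counts have no background beside them. It takes off 1 fixed profile at the median share, and the shares of single markers in dorsal dermis ran from 26.5% to 75.8%. The 8 kept Hox cofactors, the Pbx, Meis and Prep proteins that bind DNA with Hox proteins, were neither higher nor lower (median 0.24).

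Transcription factors of position outside the Hox clusters went both ways, with 8 of 32 kept members higher, 8 lower and a median of 0.18. Dlx2, at 1.66 FPKM in dorsal dermis and 4.09 FPKM in dorsal epidermis, was left out because the tail lists it at 0. Foxd1, a forkhead factor of mesenchyme, stood at 32.9 FPKM in tail, 1.14 FPKM in dorsal and 2.37 and 2.70 FPKM in the ear libraries. Prrx2, a homeobox factor of limb and craniofacial mesenchyme, stood at 103 FPKM in tail, 8.55 FPKM in dorsal, 58.2 FPKM in WT ear and 41.2 FPKM in Koa ear dermis. Tbx4, the T-box factor that marks the hindlimb field, stood at 6.57 FPKM in tail and 0.235 FPKM in dorsal dermis, and its relatives Tbx2 (9.39 and 1.64 FPKM) and Tbx3 (8.35 and 2.07 FPKM) were higher as well. Pitx1, the hindlimb factor upstream of Tbx4 in the embryo, stood at 0.07 and 0.179 FPKM and was not kept. Alx4, a homeobox gene of the limb and face, stood at 16.7 and 2.66 FPKM.

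The lower factors were mostly genes of epithelium. Barx2 stood at 0.50 FPKM in tail, 28.8 FPKM in dorsal dermis and 83.7 FPKM in dorsal epidermis, Lhx2, a factor of hair follicle stem cells, at 0.43, 25.9 and 72.3 FPKM, and Tbx1 at 0.97, 10.9 and 29.7 FPKM. The keratinocyte content given above moves with them, and its part in the result was not tested. Emx2, a homeobox gene, differed from these: it stood at 0.29 FPKM in tail, 4.73 FPKM in dorsal dermis, 15.8 FPKM in WT ear dermis and 0.145 FPKM in dorsal epidermis. En1 (8.23 and 6.24 FPKM), Zic1 (5.33 and 5.10 FPKM) and Tbx15 (27.7 and 29.8 FPKM) were close in tail and dorsal dermis. In WT ear dermis En1 and Zic1 stood at 0.0467 and 0.236 FPKM, whereas Tbx15 was higher there, at 46.5 FPKM.

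Genes of keratinocytes made up most of the genes furthest down. Dorsal epidermis stood above dorsal dermis in 56.2% of all kept genes and in 63.7% of all genes called lower. Among the 20 protein-coding genes with the widest lower difference, 18 stood higher in dorsal epidermis than in dorsal dermis. They include the keratins Krt77 (0.65 FPKM in tail and 549 FPKM in dorsal dermis), Krt15 (11.3 and 2462 FPKM), Krt5 (43.2 and 2377 FPKM) and Krt1 (8.65 and 440 FPKM), the collagen of hemidesmosomes Col17a1 (3 and 261 FPKM), the desmosome genes Dsc3, Dsg1a, Dsp and Perp, and the secreted or cytoplasmic epidermal genes Defb6, Clca2, Epgn, Serpinb5, Serpinb2, Sfn, Dmkn, Scel and Ly6d. Basal keratinocyte markers were lower in 8 of 9 (median -4.82) and suprabasal markers in 9 of 10 (median -4.08). The exception was Krt2, a keratin of tail and ear epidermis, at 21.8 FPKM in tail, 1.92 FPKM in dorsal, 86.3 FPKM in WT ear and 302 FPKM in Koa ear dermis. In bulk libraries fewer cells of a type and less RNA per cell cannot be told apart.

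Hair follicle genes followed the keratinocyte genes. Markers of growing hair were lower in 7 of 10 (median -1.44), with Krt28 at 0.15 FPKM in tail and 4.47 FPKM in dorsal dermis and Krt73 at 0.30 and 4.80 FPKM, both keratins of the inner root sheath. They stood at 7.93 and 5.94 FPKM in dorsal epidermis. Stem cell markers of the follicle were lower in 5 of 9 (median -1.01), led by Krt15, Lhx2 and Sox9 (1.46 FPKM in tail, 27.3 FPKM in dorsal dermis and 89.1 FPKM in dorsal epidermis). After the subtraction the median of the growing hair list was -0.93 and that of the stem cell list 0.77, so the second list turned its direction. Genes of the cell cycle were lower in 14 of 17 (median -1.45), among them Top2a (3.48 and 19.8 FPKM), Mki67 (2.11 and 11.6 FPKM) and Ccnb1 (1.22 and 10.1 FPKM); they stood at 34.5, 20.4 and 21.5 FPKM in dorsal epidermis, and their median after the subtraction was -0.31.

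**Figure D4:**
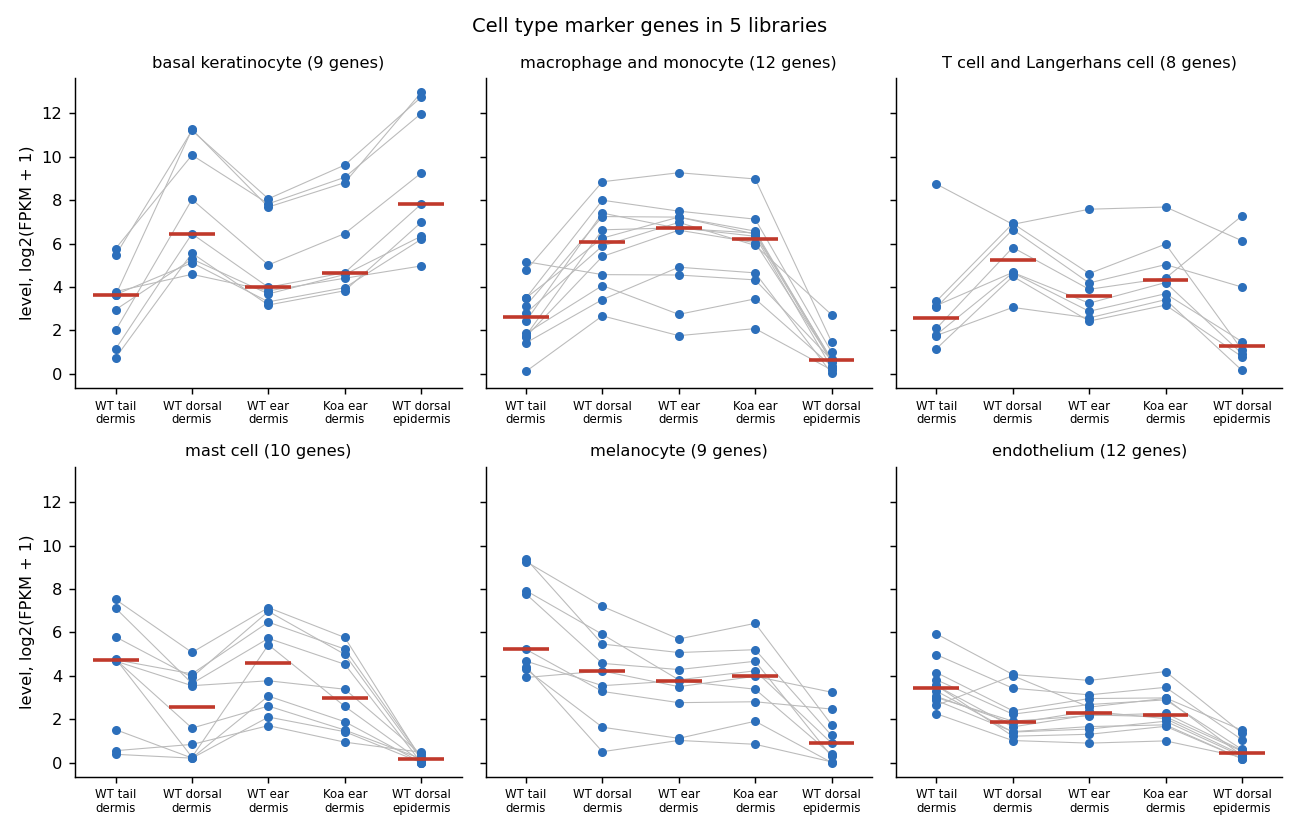
Marker genes of 6 cell types (1 point per gene, red bars for the median over genes) as log2(FPKM + 1) in 5 libraries, with grey lines joining each gene. Macrophage and T cell genes are lowest in tail among the dermal libraries and near 0 in dorsal epidermis apart from 3 genes of the T cell list, mast cell genes are low in dorsal dermis, and endothelial and pigment genes are highest in tail.

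Macrophage genes were lower in tail in 11 of 12, with a median of -3.39. The complement genes C1qa, C1qb and C1qc, which tissue macrophages make, stood at 10.3, 4.39 and 7.86 FPKM in tail and 255, 169 and 151 FPKM in dorsal dermis. Mrc1, the mannose receptor of resident macrophages, stood at 2.40 FPKM in tail, 98.5 FPKM in dorsal, 105 FPKM in WT ear and 80.1 FPKM in Koa ear dermis. Tail was the lowest of the 4 dermal libraries in the same 11 genes, beside 57.6% of all kept genes in which it was the lowest. These genes are nearly absent from dorsal epidermis, where the 12 markers lay between 0.0187 and 5.61 FPKM, and after the subtraction the list's median was -4.05. Cd14, a receptor for bacterial lipopolysaccharide that other cells also make, was the exception, at 35.0 FPKM in tail and 22.8 FPKM in dorsal dermis.

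Other white blood cell genes were lower too. Of 8 kept genes of T cells and Langerhans cells 7 were lower (median -3.09), with the T cell receptor chains Cd3g at 9.19 FPKM in tail and 121 FPKM in dorsal dermis and Cd3d at 1.23 and 21.5 FPKM, against 1.16 and 0.729 FPKM in dorsal epidermis. Thy1, which T cells share with fibroblasts, was higher in tail (428 and 118 FPKM), and Epcam, lower at 3.27 and 55.6 FPKM, is also a keratinocyte gene, at 154 FPKM in dorsal epidermis. Neutrophil genes were lower in 5 of 5 (median -2.53), with S100a9 at 3.70 and 35.9 FPKM and S100a8 at 2.68 and 23.8 FPKM. Both kept B cell genes were lower, Cd79a at 0.62 and 18.8 FPKM and Cd79b at 0.10 and 14.2 FPKM. Class II histocompatibility genes, which present antigen, were lower in 7 of 8 (median -2.03), with Cd74 at 231 and 801 FPKM and H2-Aa at 81.6 and 319 FPKM. Histocompatibility genes have near-identical copies and alleles, so their split of fragments is uncertain.

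The furthest lower genes outside the epidermal group belong to the same cells. Ccl8, a chemokine of dermal macrophages, stood at 7 FPKM in tail, 713 FPKM in dorsal, 144 FPKM in WT ear and 307 FPKM in Koa ear dermis, with 3.60 FPKM in dorsal epidermis. Cd209f, a lectin of dermal macrophages and dendritic cells, stood at 0.71 FPKM in tail, 88.9 FPKM in dorsal, 15.4 FPKM in WT ear and 39.8 FPKM in Koa ear dermis. Both were lowest in tail and highest on the back among the dermal libraries.

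Interferon-stimulated genes were lower in 12 of 19 and higher in none (median -1.29). Usp18, a brake on interferon signalling, stood at 0.95 FPKM in tail and 14.7 FPKM in dorsal dermis, and Oasl2 at 0.50 and 5.62 FPKM. In the ears Usp18 stood at 1.12 and 1.87 FPKM, so that the dorsal library was the high one of the 4, and dorsal epidermis held 7.41 FPKM. Class I histocompatibility and antigen processing genes were lower in 8 of 12 (median -1.81), with B2m, the light chain of class I molecules, at 246 and 1481 FPKM and 2686 FPKM in dorsal epidermis.

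Mast cells went against the other immune genes. Of 8 kept mast cell genes 7 were higher in tail and none lower, with a median of 2.15. The tryptases Tpsab1 and Tpsb2 stood at 26.5 and 138 FPKM in tail and 0.188 and 11.5 FPKM in dorsal dermis. Hdc, the enzyme that makes histamine, stood at 25.9 FPKM in tail, 2.00 FPKM in dorsal, 5.08 FPKM in WT ear and 1.82 FPKM in Koa ear dermis, and the protease Mcpt4 at 182, 32.7, 140 and 53.3 FPKM. Cpa3, carboxypeptidase A of mast cells, was at 25.6 and 16.0 FPKM in tail and dorsal dermis and at 87.7 FPKM in WT ear dermis, so tail was not the highest library for each of these genes. Dorsal epidermis held at most 0.293 FPKM (Kit) of any of the 8 genes.

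Pigment cell genes were higher in 8 of 9 and lower in none (median 2.07). Pmel, the matrix protein of the melanosome, stood at 670 FPKM in tail, 43.0 FPKM in dorsal, 32.6 FPKM in WT ear and 35.8 FPKM in Koa ear dermis. Tyrp1, an enzyme of melanin synthesis, stood at 217, 22.7, 18.5 and 24.4 FPKM in the same order, and the transporters Oca2 and Slc45a2 at 20.5 and 18.7 FPKM in tail and 0.413 and 2.09 FPKM in dorsal dermis. Tail was above the other 3 dermal libraries for 8 of the 9 genes, beside 18.8% of all kept genes. Mitf, the master transcription factor of the lineage, was not, at 14.1 FPKM in tail and 17.6 FPKM in dorsal dermis. Schwann cell genes were higher in 2 of 8 and lower in 1, with Sox10, which pigment cells share, at 26.8 and 5.50 FPKM and Erbb3 at 5.53 and 15.04 FPKM.

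Vessel genes were higher in tail. Of 12 endothelial genes 11 were higher (median 1.56), and the same 11 were above all 3 other dermal libraries. Tie1, a receptor of endothelial cells, stood at 10.7 FPKM in tail and 1.32 FPKM in dorsal dermis, Cdh5, the cadherin of their junctions, at 10.6 and 2.12 FPKM, and Plvap at 59.9 and 15.6 FPKM. Tek, the receptor of angiopoietins and a relative of Tie1, was the exception, at 5.20 FPKM in tail, 15.04 FPKM in dorsal and 4.87 FPKM in WT ear dermis. Pericyte genes were higher in 4 of 8 and lower in none (median 1.10), led by Rgs5 at 89.0 and 8.18 FPKM and Notch3 at 39.6 and 10.9 FPKM. Of 6 lymphatic genes 4 were higher and 1 lower (median 1.71, but -0.18 over the 3 genes at 5 FPKM or more in either library), among them Flt4 (4.81 and 0.471 FPKM) and Reln (3.85 and 0.279 FPKM), with Pdpn lower (16.8 and 37.8 FPKM); Ccl21a, at 32.95 FPKM in tail and listed at 0 elsewhere, has near-identical copies. Genes of the dermal sheath and smooth muscle showed no difference past the threshold in any of 10 (median 0.40), with Acta2 at 113 and 133 FPKM.

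Fibroblast genes were present in both libraries at high level. Dcn, the proteoglycan decorin, stood at 4211 FPKM in tail and 3675 FPKM in dorsal dermis, and Pdgfra, the receptor that defines the lineage, at 79.9 and 55.3 FPKM, so both libraries hold the labelled tissue's main cell type. Of 15 fibroblast markers 5 were higher and 2 lower (median 0.79). Pi16, a marker of adventitial fibroblasts, stood at 1180.4 FPKM in tail, 137 FPKM in dorsal, 32.1 FPKM in WT ear and 59.6 FPKM in Koa ear dermis. Ly6a, which marks progenitor-like fibroblasts, was lower at 176 and 815 FPKM, and Dpt, a matrix protein of fibroblasts, at 287 and 891 FPKM.

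Genes of the papillary dermis, the layer under the epidermis, were higher in 6 of 10 (median 1.08), with Col23a1 at 46.7 and 7.10 FPKM and the guidance factor Ntn1 at 77.4 and 15.5 FPKM. Dpp4, a surface protease of papillary fibroblasts, was lower (13.3 and 32.7 FPKM). Genes of the reticular and lower dermis went both ways, 3 higher and 2 lower of 9, among them the imprinted gene Dlk1 (4.80 and 0.432 FPKM) and the fatty acid transporter Cd36 (3.95 and 20.7 FPKM). Dermal papilla genes, of the mesenchyme that instructs the follicle, were higher in 9 of 15 and lower in 1 (median 1.21). Crabp1, a binding protein of retinoic acid, stood at 653 FPKM in tail, 39.5 FPKM in dorsal, 52.7 FPKM in WT ear and 112 FPKM in Koa ear dermis, and Corin, a protease of the papilla, at 9.52 and 1.12 FPKM in tail and dorsal dermis. Rgs2 was lower at 26.2 and 98.8 FPKM. Thus mesenchymal genes of the follicle stood higher in the library with fewer transcripts of its epithelium.

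Tendon genes were higher in 7 of 10 and lower in none (median 2.16). Fmod, the collagen-binding proteoglycan fibromodulin, stood at 1071 FPKM in tail and 11.2 FPKM in dorsal dermis, a difference of 6.46, and at 624 and 321 FPKM in WT and Koa ear dermis. Tnc, a matrix protein of tendon and healing tissue, stood at 61.3 and 5.40 FPKM and at 117 FPKM in WT ear dermis, Kera at 10.8, 0.690 and 10.4 FPKM, and Comp at 17.3, 1.86 and 102 FPKM in tail, dorsal and WT ear dermis. The dorsal library was therefore the low one of the 4 for these genes. Scx and Egr1, transcription factors of tendon, were not called, at 5.84 and 3.71 FPKM and 680 and 597 FPKM. Cartilage genes, high in the ear, were low in both: Chad stood at 2.49 FPKM in tail and 1.73 FPKM in dorsal against 257 FPKM in WT ear dermis. Skeletal muscle genes were lower in 5 of 6 (median -2.14), with Tnni2 at 0.43 and 11.3 FPKM and Acta1 at 0.12 and 7.14 FPKM.

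Collagen chains were higher in 16 of 24 kept genes that stood above 0 in dorsal dermis and lower in 4, with a median of 1.53. Col1a1 and Col3a1, the main fibrillar chains, stood at 10356 and 6514 FPKM in tail but are listed at 0 in dorsal dermis, and Col1a2 is listed at 0 in both, so no fold is given. Col12a1, a collagen on the surface of fibrils, stood at 307 FPKM in tail, 8.83 FPKM in dorsal, 46.1 FPKM in WT ear and 35.7 FPKM in Koa ear dermis. Col16a1 stood at 430 and 49.1 FPKM and Col8a2 at 21.8 and 3.42 FPKM. The 4 lower chains were Col6a6 (1.00 and 16.4 FPKM), Col6a5 (2.98 and 18.5 FPKM), Col4a3 (0.33 and 4.51 FPKM) and Col4a4 (0.89 and 5.54 FPKM), all at 0.282 FPKM or less in dorsal epidermis. They are relatives of widely used chains that were higher in tail, such as Col6a1 (1304 and 384 FPKM) and Col4a2 (194 and 66.9 FPKM). Enzymes that process collagen counted 5 of 20 higher and 1 lower (median 0.59), among them Loxl3 (19.1 and 6.70 FPKM), which cross-links collagen.

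Among other matrix genes, 12 of 23 glycoproteins were higher and 1 lower (median 1.23). Matn2, an adaptor of the filament network, stood at 198 FPKM in tail and 10.02 FPKM in dorsal dermis, Tnn, a tenascin, at 39.3 and 2.15 FPKM and Matn4 at 32.6 and 2.27 FPKM. Small leucine-rich proteoglycans went both ways, with Ogn at 43.2 and 290 FPKM and Aspn at 75.4 and 311 FPKM on the lower side. Elastic fibre genes were higher in 5 of 17 and lower in none (median 0.73), with elastin, Eln, at 650 and 154 FPKM and Ltbp4, which guides elastin assembly, at 187 and 51.4 FPKM. Of 13 kept basement membrane genes 4 were higher and 3 lower. Nid2 (31.3 and 9.24 FPKM) and Hspg2 (75.5 and 27.7 FPKM) were among the higher. Lamb3 (0.67 and 46.2 FPKM), a chain of the laminin of keratinocytes, was lower, with 125 FPKM in dorsal epidermis. The part of keratinocyte RNA in its difference was not tested.

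Genes that bind or make hyaluronan, the large sugar polymer of the matrix, included some of the widest differences, with 4 of 10 higher and 2 lower. Ptx3, a pentraxin that organises hyaluronan, stood at 545 FPKM in tail, 15.2 FPKM in dorsal and 4.06 and 4.20 FPKM in the ear libraries. Has1, a hyaluronan synthase, stood at 222, 35.7, 0.611 and 0.908 FPKM in the same order, and Tnfaip6 at 329, 78.1, 23.7 and 24.8 FPKM. The degrading enzymes Hyal1 (3.31 and 13.1 FPKM) and Hyal2 (2.58 and 8.88 FPKM) were lower. Proteases of the matrix went both ways, with the aggrecanase Adamts4 at 184 and 9.77 FPKM and Mmp9, a gelatinase of leukocytes, at 0.59 and 21.2 FPKM.

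Further genes with the widest higher difference have known roles outside these lists. Coch, a secreted protein first known from the inner ear, stood at 479 FPKM in tail, 7.68 FPKM in dorsal, 319 FPKM in WT ear and 215 FPKM in Koa ear dermis, a pattern close to that of Fmod. Sst, the peptide hormone somatostatin, stood at 60.5 FPKM in tail and was listed at 0 in dorsal and WT ear dermis and at 0.142 FPKM in Koa ear dermis. Rgs16, a regulator of G proteins, stood at 144 and 4.999 FPKM, Hpse2, an inhibitor of heparanase, at 20.9 and 0.141 FPKM and Cdkn2d, an inhibitor of cyclin-dependent kinases, at 31.7 and 0.348 FPKM in tail and dorsal dermis. Ccl19, Ccdc82 and Mia3, at 70.4, 39.2 and 36.4 FPKM in tail, are listed at 0 in all 6 other libraries, as is Hmgcs1 (96.6 FPKM in tail). Tpt1 (2273 and 13.2 FPKM) and Rps23 (777 and 38.4 FPKM) have many processed copies in the genome and stood at 57.1 FPKM or less in dorsal epidermis too, so their values are uncertain.

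The insulin-like growth factor (IGF) system was higher in 6 of 11 and lower in none, with a median of 1.42. Igfbp2, a binding protein of IGF, stood at 310 FPKM in tail, 7.36 FPKM in dorsal, 91.5 FPKM in WT ear and 87.6 FPKM in Koa ear dermis. Igf2, a growth factor of fetal tissues, stood at 30.1 and 3.01 FPKM in tail and dorsal dermis and 116 FPKM in WT ear dermis. Igfbp5 (1351 and 238 FPKM) and Igfbp4 (802 and 147 FPKM) were above both ears as well. Igfbp3 was close in the 2 libraries at 528 and 567 FPKM.

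Wnt ligands and R-spondins, which start or enhance Wnt signalling, went both ways, with 6 of 17 higher and 7 lower. Among the lower ligands Wnt3 (0.14 and 15.4 FPKM), Wnt7b (0.08 and 8.50 FPKM) and Wnt10a (0.67 and 10.5 FPKM) stood at 34.2, 23.6 and 33.8 FPKM in dorsal epidermis. Among the higher ones Wnt5a stood at 35.3 and 9.05 FPKM (8.84 FPKM in dorsal epidermis), Wnt11 at 7.33 and 3.14 FPKM (4.59 FPKM in dorsal epidermis), Wnt5b at 15.7 and 1.88 FPKM, Wnt2b at 4.16 and 0.211 FPKM, Rspo1 at 45.9 and 10.6 FPKM and Rspo4, which is needed for nails in people, at 11.9 and 0.342 FPKM. Rspo2 went the other way, at 0.44 FPKM in tail, 6.30 FPKM in dorsal and 0.307 FPKM in WT ear dermis, and at 0.0201 FPKM in dorsal epidermis. Among 10 kept secreted inhibitors 4 were higher, including Wif1 (155 and 25.6 FPKM) and Dkk2 (133 and 24.2 FPKM), and 2 lower, including Sostdc1 (17.7 and 56.1 FPKM, with 253 FPKM in dorsal epidermis). Of 12 target genes 4 were higher and 3 lower, with the feedback inhibitors Nkd1 (46.9 and 7.55 FPKM) and Nkd2 (53.7 and 7.41 FPKM) on the higher side, and Axin2, the usual readout of the pathway, at 12.9 and 16.3 FPKM and not called.

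Ligands of the bone morphogenetic protein (BMP) and transforming growth factor family were higher in 7 of 16 and lower in 1 (median 0.81). Inhba and Inhbb, the subunits of activins, stood at 37.6 and 28.3 FPKM in tail and 7.41 and 6.41 FPKM in dorsal dermis, and Bmp6 at 10.6 and 2.10 FPKM. Gdf15, a ligand induced by stress, was lower at 5.12 and 34.7 FPKM, with 0.624 FPKM in WT ear dermis. Of 12 antagonists 1 was higher and 3 lower, led by the activin antagonist Fst (15.04 and 54.1 FPKM, with 142 FPKM in dorsal epidermis). Among 12 target genes 2 were higher and 3 lower, with Id3 at 398 and 152 FPKM on the higher side, whereas Id1 (26.0 and 103 FPKM) and Id2 (42.7 and 167 FPKM) were lower. The Id genes, which code for related inhibitors of transcription factors, therefore went in opposite directions.

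In the other pathways members went both ways, except in the Hedgehog pathway, where no kept gene was lower. Of 14 kept fibroblast growth factor genes 4 were higher and 3 lower, with Fgfr4 at 14.4 and 3.62 FPKM and Fgfr3, a receptor of keratinocytes, at 3.61 and 25.1 FPKM (73.8 FPKM in dorsal epidermis). In the Hedgehog pathway 2 of 10 were higher, the co-receptor Gas1 (249 and 53.9 FPKM) and the transcription factor Gli2 (7.69 and 3.04 FPKM). Shh, at 1.54 FPKM in dorsal dermis and 4.25 FPKM in dorsal epidermis, was left out because the tail lists it at 0. The absence of lower genes thus depends on the filter. In the Notch pathway 2 of 12 were higher and 4 lower, the lower ones led by Jag2 (3.33 and 27.3 FPKM, with 65.8 FPKM in dorsal epidermis). Retinoid genes were higher in 4 of 13 and lower in 2: Cyp26b1, which degrades retinoic acid, stood at 88.0 FPKM in tail, 11.5 FPKM in dorsal and 120 FPKM in WT ear dermis, and Aldh1a1, which makes it, at 6.43, 38.1 and 140 FPKM. The other two enzymes that make it were higher in tail, Aldh1a2 at 2.35 and 0.330 FPKM and Aldh1a3 at 9.20 and 3.16 FPKM.

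**Figure D5:**
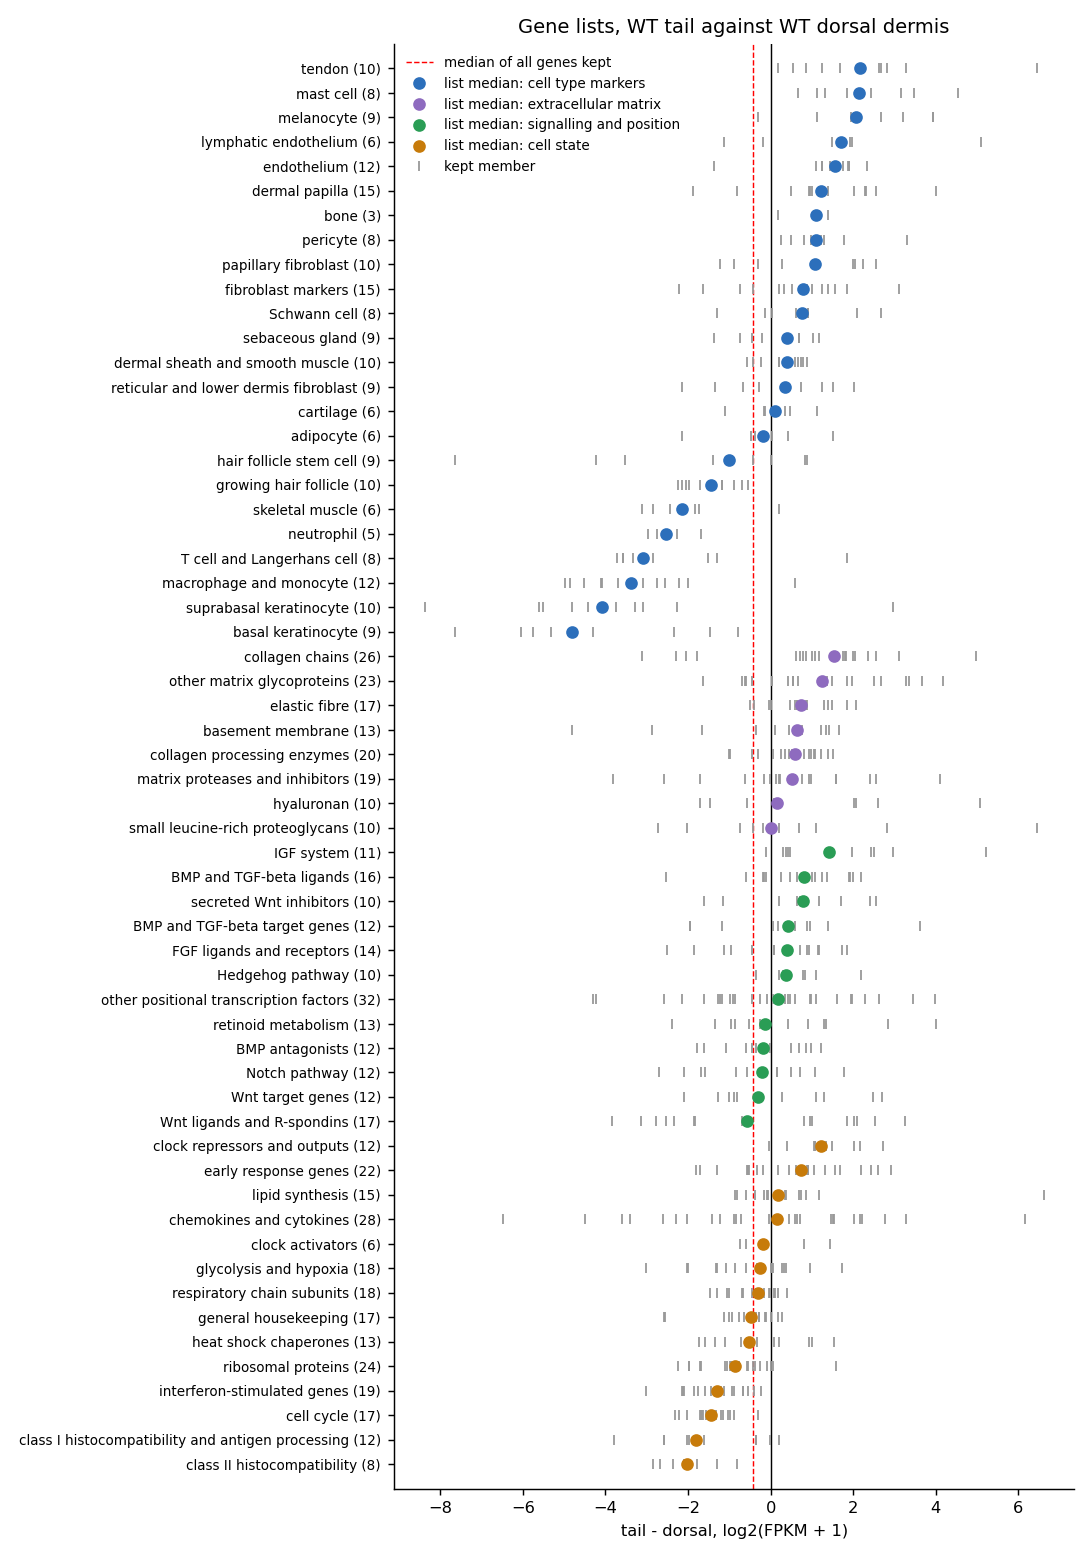
Differences (tail minus dorsal, log2(FPKM + 1)) for the gene lists outside the Hox clusters with 3 or more kept members (number in brackets); grey ticks are members, dots list medians, and the dashed line is the median of all genes kept, -0.42. Tendon, mast cell and pigment lists have medians above 2 and the lists of macrophages, T cells and keratinocytes medians below -3; Col1a1 and Col3a1, listed at 0 in dorsal dermis, are not drawn but count in the collagen median.

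Chemokines and cytokines that were kept divided in equal numbers, 9 of 28 higher and 9 lower. Ccl20, at 1 FPKM or more in dorsal dermis, was left out because the tail lists it at 0, so the equal split depends on the filter. Among those higher in tail, Cxcl1, which draws neutrophils, stood at 1009 FPKM in tail, 104 FPKM in dorsal and 9.62 FPKM in WT ear dermis, Cxcl14 at 2005, 292 and 178 FPKM, Ccl2, which draws monocytes, at 411, 87.9 and 25.6 FPKM and Il6 at 107, 22.9 and 1.12 FPKM. Among those lower, beside Ccl8, Cxcl13 stood at 0.26 and 27.4 FPKM, Ccl5 at 0.76 and 20.5 FPKM and Ccl9 at 2.22 and 33.1 FPKM. Chemokines that draw monocytes were found on both sides, with Ccl2 and Ccl7 (302 and 106 FPKM) higher and Ccl8, Ccl5 and Ccl9 lower.

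Early response genes, which cells switch on within minutes of a stimulus such as tissue dissociation, were higher in 8 of 22 and lower in 3 (median 0.75). Nr4a2 stood at 82.0 FPKM in tail, 9.95 FPKM in dorsal and 2.47 FPKM in WT ear dermis, Fosb at 1573, 259 and 7.91 FPKM and Zfp36 at 3887, 722 and 53.8 FPKM. Fos stood at 1838, 974 and 84.9 FPKM. Over the list, sums were 16148 FPKM in tail, 7654 FPKM in dorsal, 896 FPKM in WT ear and 1044 FPKM in Koa ear dermis, and 15311 FPKM in dorsal epidermis. The part of this response in Ptx3, Has1, Cxcl1, Il6 and Adamts4, which were also low in the ears, was not tested. Egr2 (12.9 and 47.4 FPKM) and Fosl1 (4.11 and 15.8 FPKM) were lower in tail.

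Repressors and outputs of the circadian clock were higher in 10 of 12 and lower in none (median 1.21). Cry2 stood at 68.8 FPKM in tail and 9.56 FPKM in dorsal dermis, Per2 at 6.41 and 0.658 FPKM, and Nr1d1, the repressor of the clock's activator genes, at 173 and 42.0 FPKM. The activators Arntl and Clock stood at 17.5 and 26.8 FPKM and at 7.74 and 13.5 FPKM and were not called, and 1 of 6 activators was higher. The labels give no hour of sampling, so tissue and time of day cannot be told apart. In WT ear dermis Per2 stood at 8.26 FPKM and Dbp, an output gene, at 23.7 FPKM, against 9.39 FPKM in tail and 2.73 FPKM in dorsal dermis.

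Respiratory chain and housekeeping genes stayed close to the background, whereas ribosomal protein genes had a lower median. Subunits of the respiratory chain were lower in 4 of 18 (median -0.30), housekeeping genes in 4 of 17 (median -0.48) and ribosomal protein genes in 7 of 24 (median -0.86), beside 24.9% lower and a median of -0.42 over all genes. Genes of glycolysis and hypoxia were lower in 6 of 18, led by Egln3 (1.34 and 18.0 FPKM, with 59.5 FPKM in dorsal epidermis). Of 15 genes of lipid synthesis 2 were higher, Scd1 at 115 and 50.6 FPKM and Hmgcs1, whose 0 in dorsal dermis can be a failed estimate.

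Across all 63 lists with 3 or more kept members, 13 had a median of 1 or more and 12 a median of -1 or less. With the tail values scaled to a median difference of 0, 23 of these 25 medians stayed past 1 in the same direction. After the subtraction of the epidermal profile with the rest rescaled 12 did, against 19 without the rescaling. Among the genes called higher, 84.0% stood above all 3 other dermal libraries in tail, beside 18.8% of all kept genes. Among those called lower, 91.0% stood below all 3, beside 57.6% of all kept genes. Dorsal dermis is 1 of the 3, so the call itself meets part of the condition, and these shares are no support for the calls. The 3 other dermal libraries share the column processing that the tail library lacks, so these shares do not separate the tissue from the processing.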

How the data were processed

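RNA from sorted cells was sequenced by the study, and the authors deposited 1 table of FPKM values per gene and library. The submitters' processing notes name TopHat2 2.0.13 and Cufflinks 2.2.1 and the builds GRCm38 and mm9; which build and annotation gave the table is not given in the sources used here. Fragment counts are not used here, so the depth of each library is unknown and no interval is given.

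Genes were placed on chromosomes by symbol with RefSeq's GRCm38.p6 tables, which matched 22289 of 22552 symbols; chromosomes 1 to 19 were used. Differences were taken as log2(FPKM + 1), tail minus dorsal, with python 3.11.15 and pandas 2.3.3, and the arithmetic was tested on simulated data. A pseudocount of 1, a minimum of 1 FPKM in either library and a threshold of 1 were used. The members, the 66 gene lists and the rules were chosen with earlier results of these data known. Named were the Hox genes, the 20 widest differences each way among protein-coding genes at 5 FPKM or more, up to 4 widest members of each list (more where members went both ways or stood apart), and genes that check the labels. Genes named as exceptions or not called were chosen after their values were seen, and some genes that the rule names are not reported here. For the subtraction, dorsal epidermal FPKM times each library's median keratinocyte marker share was taken off that library.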

Additional observations from a re-analysis of the deposited data

Results flagged for a closer look

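A signal outside the autosomal comparison separated the libraries by sex: Xist stood at 41.52 FPKM in WT tail dermis and 0.122 FPKM in WT dorsal dermis, and Ddx3y stood at 0 and 33.1 FPKM. Sex and body site cannot be told apart for autosomal genes in these 2 libraries.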

How the results depend on the processing

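No paired analysis was possible because each group has 1 library. With a pseudocount of 5, 561 genes were higher and 1374 lower, with 5 Hox genes each way, and 15 list medians were past 1. With a difference of at least 2, 270 genes were higher and 859 lower, with 5 Hox genes higher and 3 lower. With the tail values scaled to a median difference of 0, 1876 were higher and 2038 lower. With the dorsal epidermal profile subtracted, 3014 genes were higher and 1050 lower, 5 Hox genes were lower, and 39 list medians were past 1. With the rest rescaled as well, 10 Hox genes were higher and 5 lower. Among 1680 genes with dorsal epidermis under 10% of the higher dermal value, 564 were higher and 460 lower, and no Hox gene was lower; no gene of groups 1 to 8 passed this filter, so that count was fixed by it. The rescaled subtraction and the last setting were chosen after seeing the data. List medians kept their sign in 52 of 59 at 5 FPKM or more, 59 of 63 with no filter, 54 of 63 with the tail scaled, 44 of 63 under the subtraction, 43 of 63 with rescaling and 34 of 40 under the 10% limit. Of the medians past 1, that of lymphatic endothelium turned to -0.18 at 5 FPKM or more. The subtraction without rescaling turned those for basal keratinocytes (0.15), suprabasal keratinocytes (3.64), hair follicle stem cells (1.41) and the cell cycle (0.25). With rescaling those for suprabasal keratinocytes (3.65) and hair follicle stem cells (0.77) turned, and that of the cell cycle did not. These subtractions use the keratinocyte markers themselves, so they say little about keratinocyte lists. All 63 list medians kept their sign with a pseudocount of 0.1, with equal totals, without short RNAs, and with zeros of the tail column kept or of the dorsal column left out.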
